A study of Mus musculus with 9 samples.

Results

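Knockout clone 19 was compared with the parental cells it was derived from, in a mouse cell line in which CRISPR was used to remove Cdk8. The comparison used 3 clone 19 libraries and 3 parental libraries, 6 of the 9 libraries of the series, and covered the genes that reached 1 RPKM (reads per kilobase of gene per megaread) in at least 3 of these 6 libraries. This was the case for 12449 of the 28059 genes in the table. The cells were YAMC, a conditionally immortalised mouse line that the labels describe as intestinal and assign to the small intestine. The parental libraries carry the genotype wildtype and the clone 19 libraries the genotype Cdk8 -/-. The other 3 libraries came from a second Cdk8 -/- clone, clone 1, which entered the fit and served to ask which values of clone 19 also differed from another knockout. Cells of every group were grown at 32 °C and taken during logarithmic growth, and none was given a further treatment in the labels. Clone 19 is 1 clone, and there is no clone with intact Cdk8 among these libraries, so effects of losing Cdk8 and of isolating a clone cannot be told apart. The labels do not say whether replicates were separate cultures, so every p-value measures the spread between these libraries, which may be technical.

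CDK8 is a cyclin-dependent kinase. With cyclin C, MED12 and MED13 it forms the kinase module that binds reversibly to Mediator, the complex that connects transcription factors to RNA polymerase II. The module can repress or help activate transcription depending on the gene, and in the gut CDK8 is best known as a gene amplified in colon cancer and as a cofactor of Wnt signalling. CDK19 is a closely related kinase that can take its place in the module. A CRISPR edit can remove a protein while the messenger RNA persists, so a level of Cdk8 RNA does not measure CDK8 protein.

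The estimated depth of the 6 libraries was 24.4 to 43.5 megareads, and each had between 18163 and 18907 genes above 0. Over the tested genes (genes are no replicates), the correlation of log2 values was 0.998 within parental libraries, 0.997 within clone 19, and 0.966 to 0.968 between the groups. Of 25 intestinal epithelial markers, 1 passed the filter and 19 stayed under 0.1 RPKM in all 6 libraries, with Cdx2, a master regulator of intestinal identity, at 0 in each of them. Epcam, the pan-epithelial adhesion molecule, was at 0, 0.0343 and 0.0293 RPKM across parental libraries and at 0.215, 0.131 and 0.137 RPKM across those of clone 19, and the E-cadherin gene Cdh1 was at 0.559, 0.457 and 0.630 RPKM across parental libraries and at 1.25, 1.13 and 1.38 RPKM across those of clone 19. The tissue label was therefore not matched by its defining markers in either group. Markers of 3 other sources were sparse as well, with 2 of 19 immune, 4 of 14 endothelial and 2 of 14 neural and glial markers measured, and Ptprc, the pan-leukocyte marker, was at or under 0.00601 RPKM in the 6 libraries. Mesothelial markers, in contrast, were measured for 16 of 18 genes and are described with the cell identity genes.

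Cdk8 RNA was lower in clone 19 but remained well above 0. It was at 17.5, 17.7 and 17.5 RPKM across parental libraries and at 10.5, 10.3 and 10.3 RPKM across those of clone 19, a fall of 0.74 on the log2(RPKM + 0.5) scale used for every fold change here (SE 0.04, adjusted p = 3.2e-08, limma with Benjamini-Hochberg adjustment). The 2 groups did not overlap, which was also the case for 73.7% of all tested genes. Its level in clone 1 was 11 ± 0.658 RPKM (SD, n = 3), and the contrast of clone 19 with clone 1 was not called (-0.08, adjusted p = 0.140, limma). Cdk19, the paralog, rose from 8.20 ± 0.258 to 9.33 ± 0.403 RPKM (SD, n = 3 each; log2 fold change 0.18, and 0.46 with the shift of neighbouring genes subtracted) and was also higher than in clone 1 (0.15, adjusted p = 0.0146, limma). Among the other subunits, Med13l, a MED13 paralog, rose (0.20), Ccnc, which encodes cyclin C, fell (-0.14), and Med13, which links the module to core Mediator, fell (-0.21). Med12, which activates the kinase, was not called (-0.05, adjusted p = 0.394, limma), but with the shift of neighbouring genes subtracted it was called lower (-0.185, adjusted p = 0.0130, limma). The Med13 call ended without parental replicate 1 (-0.17, adjusted p = 0.0728, limma) or clone 19 replicate 2 (-0.20, adjusted p = 0.0546, limma), and with neighbouring genes subtracted its value was 0.06 (adjusted p = 0.463, limma).

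By limma, 8626 of the 12449 tested genes (69.3%) were called at an adjusted p under 0.05, with 4567 (36.7%) higher and 4059 (32.6%) lower in clone 19. Most of these differences were small. Of the called genes, 6631 changed by less than 0.5 on the log2 scale, 1485 by 0.5 to 1, 450 by 1 to 2 and 60 by 2 or more. Of the 60 genes changed by 2 or more, 47 fell and 13 rose. At least a 2-fold change was found for 219 genes that rose (1.76% of those tested) and 291 that fell (2.34%). The 3 clone 19 values did not overlap the 3 parental values in 9172 genes (73.7%), so a call or a lack of overlap is the common case here. The median log2 fold change over all tested genes was 0.02 and the median absolute value 0.20.

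Large changes were found mostly at low levels. Genes that rose at least 2-fold had a median of 2.86 RPKM in parental cells and 8.65 in clone 19, and genes that fell at least 2-fold went from 5.18 to 1.47 RPKM, against 11.4 and 11.3 RPKM over all tested genes. Of the 2107 genes with a mean under 3 RPKM, 9.73% changed at least 2-fold, 71 upwards and 134 downwards. Of the 631 genes at 100 RPKM or more it was 1.90%, 10 upwards and 2 downwards, although 81.5% of them were called. In the filter itself, 420 genes passed with exactly 3 libraries at 1 RPKM, 129 missed it with 2, and 152 passed through clone 19 alone and 216 through parental cells alone.

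**Figure D1:**
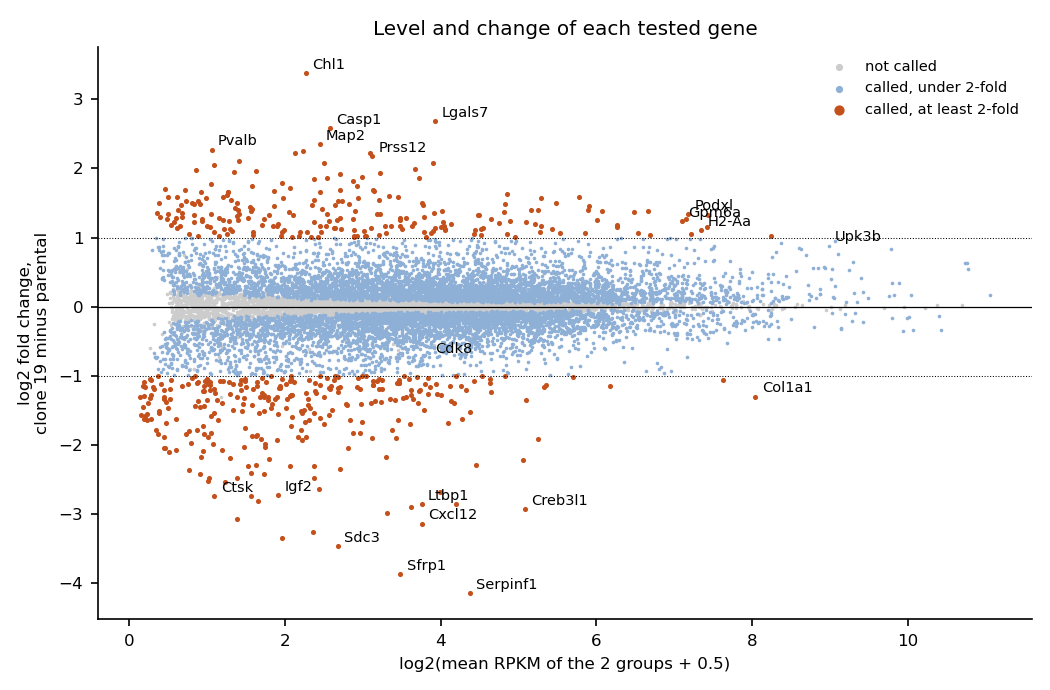
Log2 fold change of clone 19 minus parental (y axis, on log2(RPKM + 0.5)) against the mean level of the 2 groups (x axis, log2 of RPKM plus 0.5) for 12449 tested genes. Grey points were not called, blue points were called and under 2-fold, and orange points were called and at least 2-fold (219 higher, 291 lower); most orange points lie at low levels, and Serpinf1 and Chl1 mark the lowest and highest change.

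The gene that rose most was Chl1, a neural cell adhesion molecule of the L1 family, which was at 0.379, 0.365 and 0.285 RPKM across parental libraries and at 7.89, 8.86 and 8.11 RPKM across those of clone 19 (log2 fold change 3.38, SE 0.06). The 15 named genes with the largest rise were taken only from genes whose clone 19 and parental libraries did not overlap. Their lack of overlap was therefore set by the choice and is no result. Lgals7, a galectin of stratified epithelia, was at 3.79, 3.62 and 3.44 RPKM in parental cells and at 25.4, 25.8 and 26.7 RPKM in clone 19 (log2 fold change 2.69). Casp1 encodes the caspase that matures interleukin-1 beta and interleukin-18, and was at 1.21, 0.983 and 1.48 RPKM in parental cells and at 9.84, 9.35 and 10.1 RPKM in clone 19 (2.58). Map2, a microtubule protein of neurons, rose from 1.29 ± 0.0716 to 8.64 ± 0.208 RPKM (2.35). Emb (embigin, a partner of monocarboxylate transporters) rose from 2.52 ± 0.316 to 13.6 ± 0.444 RPKM (2.23), and the linker histone gene H1f2 from 5.22 ± 0.131 to 23.6 ± 1.21 RPKM (2.08). H1f2 belongs to a family of near-identical genes among which reads could have been split, so its level is uncertain.

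Of the 15, 6 (Chl1, Pvalb, Rap1gap, Itgal, Sorcs1 and Lratd1) were under 1 RPKM in every parental library and passed the filter through clone 19 alone, so they had to differ and their p-values are no support for a difference. Pvalb (parvalbumin, a calcium-binding protein) was at 0.150, 0.196 and 0.301 RPKM in parental cells and at 2.64, 2.82 and 3.43 RPKM in clone 19 (2.27). Itgal, the alpha L integrin chain of the leukocyte receptor LFA-1, was at 0.407, 0.318 and 0.255 RPKM in parental cells and at 3.19, 2.57 and 3.05 RPKM in clone 19 (2.06), and Sorcs1, a sorting receptor, was at 0.212, 0.258 and 0.228 RPKM in parental cells and at 2.19, 2.41 and 2.57 RPKM in clone 19 (1.98). Ptprc was near 0, and the summed level of the 19 immune markers was 5.54 to 6.08 RPKM in parental libraries and 5.19 to 6.18 RPKM in clone 19. Unc45b, a myosin chaperone of muscle, rose from 1.04 to 6.69 RPKM (2.22), Prss12, a serine protease also called neurotrypsin, from 2.66 to 13.8 RPKM (2.17), and Rap1gap, which switches off the GTPase Rap1, from 0.506 to 3.82 RPKM (2.10). Fndc3c1 rose by 2.08, Fxyd3, a regulator of the sodium-potassium pump, by 1.99, and Lratd1 by 1.96. Adjusted p-values of the 15 ran from 1.2e-11 to 3.9e-08 (limma). Against clone 1, 8 of the 15 were higher in clone 19, 4 were lower and 3 were not called. Over all tested genes, 43.1% were called between the clones in either direction.

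The gene that fell most was Serpinf1, which encodes PEDF, a secreted factor that restrains blood vessel growth. It was at 37.8, 39.0 and 39.4 RPKM across parental libraries and at 1.71, 1.70 and 1.73 RPKM across those of clone 19 (log2 fold change -4.15, SE 0.05). Next came Sfrp1, a secreted antagonist of Wnt ligands, at 20.6, 20.6 and 20.2 RPKM in parental cells and at 0.927, 0.987 and 0.876 RPKM in clone 19 (-3.88), and Sdc3, a heparan sulfate proteoglycan of the cell surface, at 11.5, 11.1 and 11.2 RPKM in parental cells and at 0.555, 0.542 and 0.600 RPKM in clone 19 (-3.46). As for the genes that rose, the 15 named genes with the largest fall were taken only from genes without overlap between the groups. The chemokine Cxcl12 and its scavenger receptor Ackr3 fell together. Cxcl12 was at 24.7, 23.8 and 22.9 RPKM in parental cells and at 2.04, 2.39 and 2.35 RPKM in clone 19 (-3.14), and Ackr3 was at 6.53, 6.56 and 6.80 RPKM in parental cells and at 0.277, 0.186 and 0.141 RPKM in clone 19 (-3.35). The signalling receptor of the same ligand, Cxcr4, was at or under 0.033 RPKM in all 6 libraries.

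Creb3l1, a transcription factor held in the endoplasmic reticulum and known for driving type I collagen in bone, had the highest parental level of the 15 and fell from 59.5 ± 0.685 to 7.39 ± 0.251 RPKM (-2.93). Ltbp1, which tethers latent TGF-beta to the matrix, fell from 23.3 ± 0.492 to 2.76 ± 0.149 RPKM (-2.87), and Igf2, the fetal insulin-like growth factor, from 6.04 ± 0.172 to 0.486 ± 0.0365 RPKM (-2.73). Aqp1, a water channel, fell by 3.27 on the log2 scale, Angptl2, a secreted angiopoietin-like factor, by 2.99, Cdsn (corneodesmosin) by 2.91, Nsg1, an endosomal protein of neurons, by 2.86, and Apln, the peptide ligand apelin, by 2.75. Sfrp1, Sdc3, Ackr3, Aqp1, Lrrc32, Apln, Ctsk and Igf2 were under 1 RPKM in every clone 19 library. They passed the filter through parental cells alone, so they had to differ and their p-values are no support for a difference. Adjusted p-values of the 15 ran from 9.3e-13 to 8.6e-10 (limma). Against clone 1, 4 of the 15 were higher in clone 19, 6 were lower and 5 were not called. Over all tested genes, 43.1% were called between the clones in either direction.

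In 3 genes all parental libraries were above 2 RPKM and all clone 19 libraries under 0.1 RPKM. These were Lrrc32, which encodes the TGF-beta anchor GARP, at 4.11, 4.23 and 4.13 RPKM in parental cells and at 0.0446, 0.0942 and 0.0211 RPKM in clone 19, Ctsk, the collagen-degrading cathepsin K, at 3.10, 3.32 and 3.24 RPKM in parental cells and at 0.0919, 0.0202 and 0.0544 RPKM in clone 19, and Syk, a tyrosine kinase of immune receptors, at 2.32, 2.42 and 2.36 RPKM in parental cells and at 0.0646, 0.0795 and 0.0229 RPKM in clone 19. Their log2 fold changes were -3.07, -2.75 and -2.37, values that the added 0.5 RPKM keeps smaller than the ratio of levels. No gene met the same rule in the other direction.

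**Figure D2:**
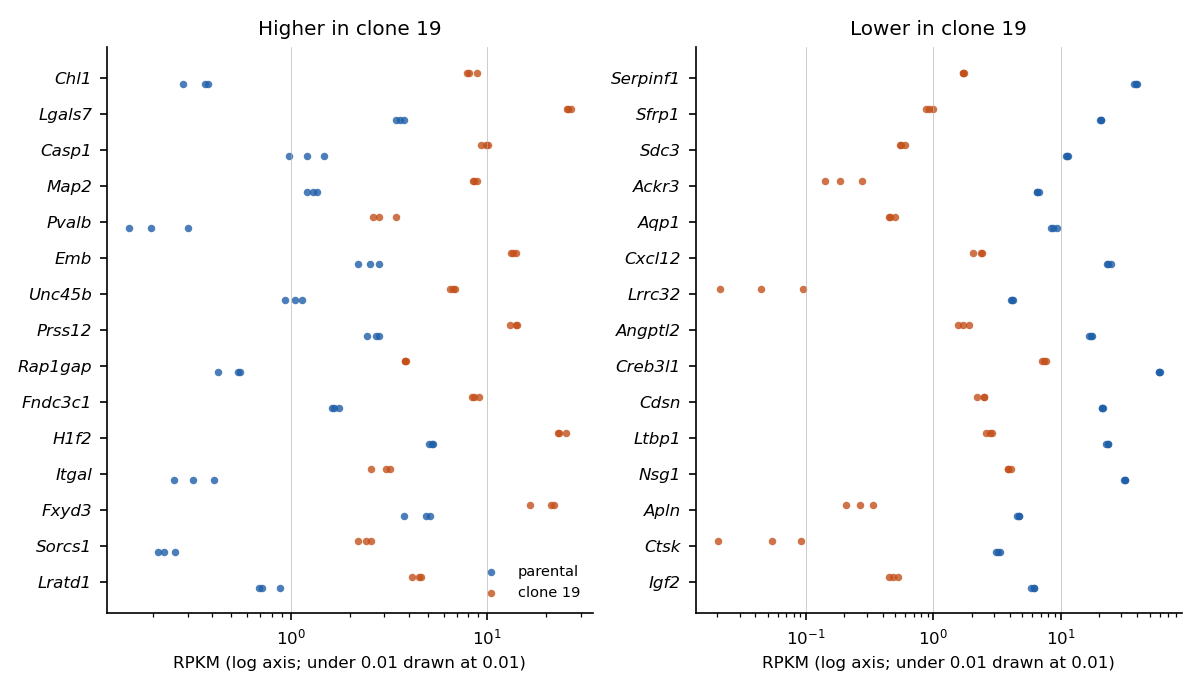
RPKM of each library (x axis, log scale) for the 15 named genes that rose most (left) and the 15 that fell most (right) in clone 19; blue points are the 3 parental libraries and orange points the 3 clone 19 libraries. Only genes without overlap between the 2 groups were eligible, so the points do not overlap in any row. Lrrc32 and Ctsk lie under 0.1 RPKM in clone 19.

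Among genes of at least 100 RPKM in the higher group, the largest rises were those of Lrrn4, Saa3, Podxl, Alad, Tmem98 and Gpm6a. Saa3, an acute-phase serum amyloid, was at 47.5, 51.6 and 49.8 RPKM in parental cells and at 138, 113 and 136 RPKM in clone 19 (1.36), with the second clone 19 library lowest and still far above the parental ones. Podxl, the sialomucin podocalyxin, rose from 81.5 ± 1.09 to 207 ± 3.03 RPKM (1.34), and Alad, an enzyme of heme synthesis, from 98.5 ± 1.27 to 248 ± 9.15 RPKM (1.32). The 2 that fell at least 2-fold at this level were Col1a1, the alpha 1 chain of type I collagen, at 369.9, 391 and 364 RPKM in parental cells and at 146, 157 and 152 RPKM in clone 19 (-1.30), and Ly6a, which encodes the surface marker Sca-1, at 265, 274 and 262 RPKM in parental cells and at 129, 126 and 126 RPKM in clone 19 (-1.07).

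Gene lists were described by their counts and their median log2 fold change. These are to be read beside 36.7% higher, 32.6% lower and a median of 0.02 over all tested genes. Counts of members called against clone 1 are to be read beside 43.1% of all tested genes called between the clones, higher or lower. Among lists with at least 8 measured members, the highest medians were those of mesothelial markers (0.85), keratins, junctions and galectins (0.66), cholesterol synthesis and uptake (0.64) and MHC class II (0.45). The lowest were those of extracellular purine enzymes and receptors (-0.52), xenobiotic and aldehyde metabolism (-0.37), Wnt target genes (-0.27) and the ATF4 stress response (-0.23). Many others, such as interferon response, TGF-beta and BMP, and the cell cycle, had medians between -0.05 and 0.05 with members called in both directions.

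**Figure D3:**
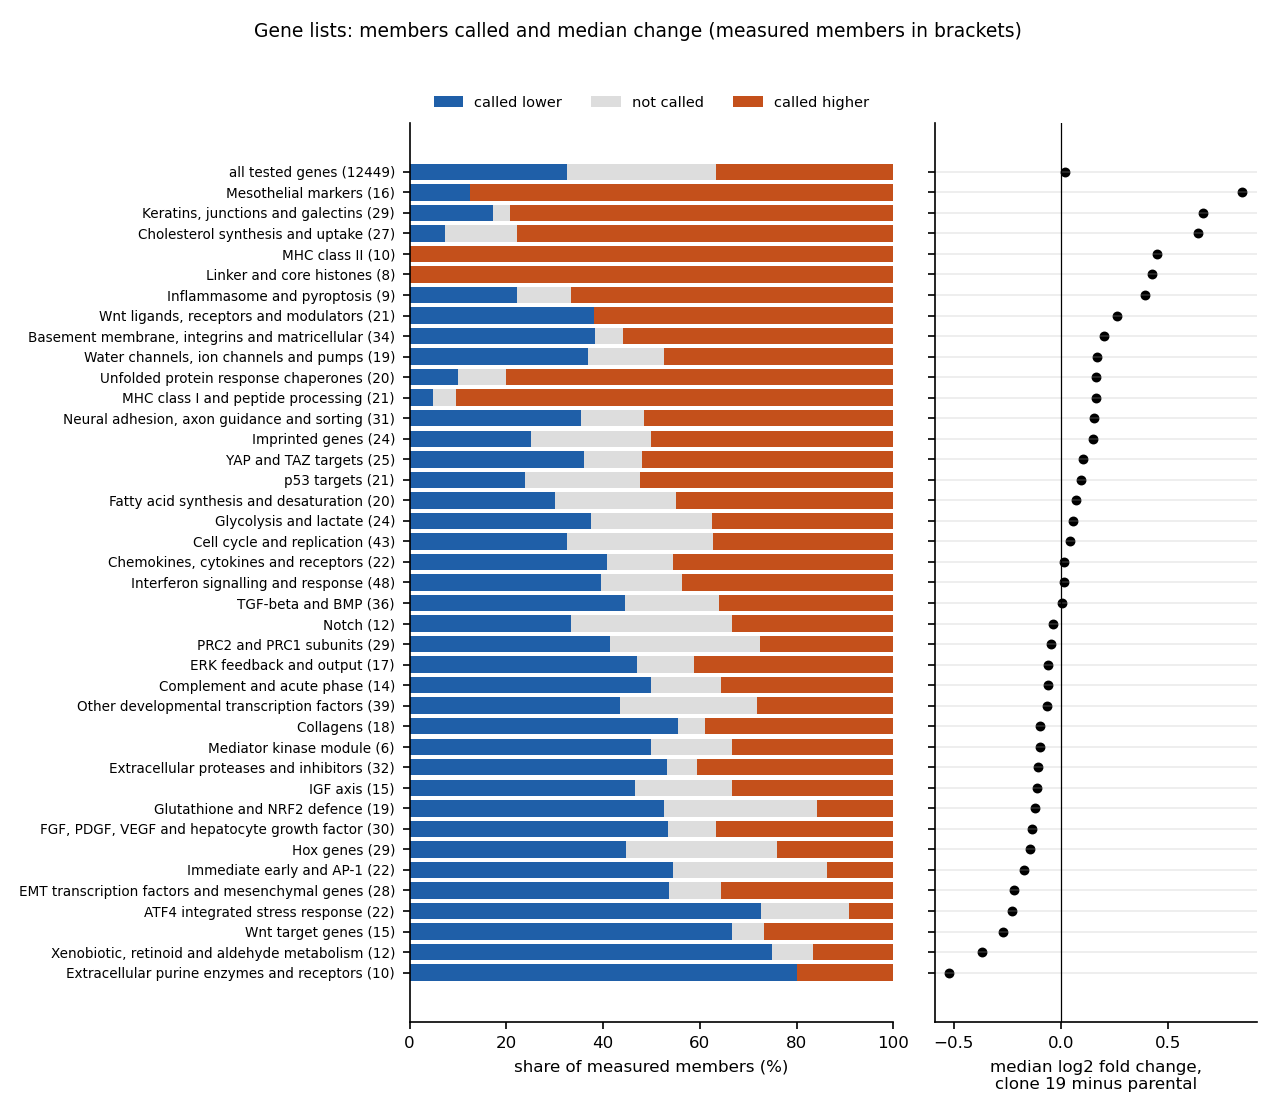
Share of measured members called lower (blue), not called (grey) and called higher (orange) in clone 19 for the gene lists (left, percent, with the number measured in brackets) and the median log2 fold change of the list (right). The top bar is all 12449 tested genes. The intestinal, immune, endothelial, and neural and glial marker lists had few measured members and are not drawn. Mesothelial markers have the highest median and extracellular purine genes the lowest.

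Mesothelial markers were more abundant than the intestinal, immune, endothelial and neural lists, and most of them rose in clone 19. The list of mesenchymal genes, described further on, had a higher summed level. It was 3109 to 3152 RPKM in parental libraries and 3321 to 3366 RPKM in those of clone 19. Mesothelium is the flat epithelium that lines body cavities and organ surfaces, and it carries simple keratins, uroplakins and WT1. Of 16 measured markers, 14 rose and 2 fell, with 0 not called; their summed level was 1731 to 1748 RPKM in the parental libraries and 3032 to 3045 RPKM in those of clone 19. Upk3b, a uroplakin, was at 352, 356 and 356 RPKM in parental cells and at 653, 659.8 and 652 RPKM in clone 19 (0.88), and Upk1b, another uroplakin, rose from 363 ± 2.21 to 703 ± 9.50 RPKM (0.95). Wt1, a transcription factor of mesothelium and gonad, was at 79.3, 82.5 and 78.5 RPKM in parental cells and at 156, 158 and 160.1 RPKM in clone 19 (0.98). Lrrn4 rose from 55.6 ± 0.279 to 146 ± 4.57 RPKM (1.38), the membrane glycoprotein Gpm6a from 80.8 ± 1.34 to 192 ± 2.86 RPKM (1.24), and Rspo1, a secreted enhancer of Wnt signalling, from 6.59 to 19.6 RPKM (1.5). The simple keratins Krt8, Krt18 and Krt19 rose by 0.66, 0.57 and 0.85, Bnc1 by 0.78, Cldn15 by 0.84, C3 by 1.28, Muc16 by 0.47 and Nkain4 by 0.33. Not every marker moved this way. Msln (mesothelin) fell from 112 ± 2.91 to 101 ± 3.39 RPKM (-0.14), Krt7 fell from 22.1 to 14.9 RPKM (-0.56), and the other two, Aldh1a2 and Igfbp5, did not pass the filter. In bulk RNA, more cells of a type and more RNA per cell cannot be told apart. The part of the mesothelial markers in the other results was not tested.

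**Figure D4:**
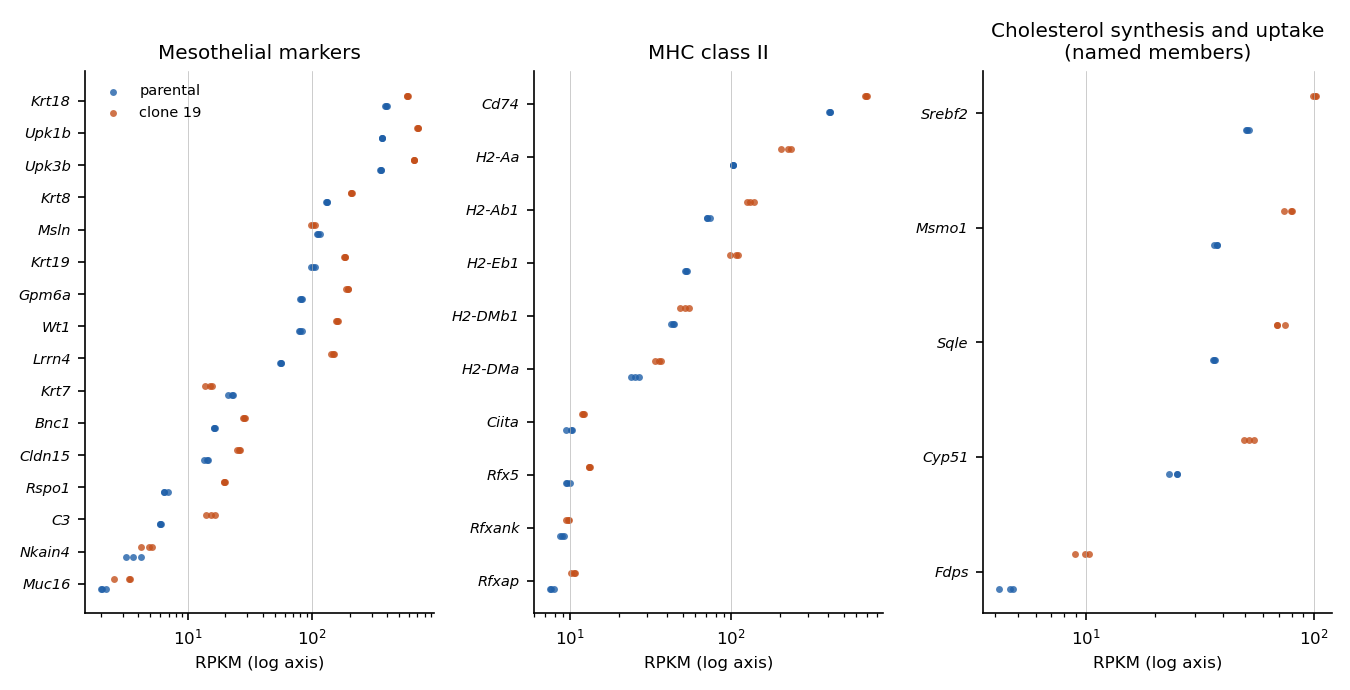
RPKM of each library (x axis, log scale) for all measured mesothelial markers and MHC class II genes and for the 5 cholesterol genes named by size of change, ordered by parental level; blue points are the 3 parental libraries and orange points the 3 clone 19 libraries. All 10 MHC class II genes rose, with H2-Aa moving from 102 to 222 RPKM, while Msln and Krt7 go against the other mesothelial markers.

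Keratins, junction proteins and galectins mostly rose as well, in a list that shares its simple keratins with the mesothelial markers. Of 29 measured, 23 rose and 5 fell, with 1 not called, and 6 rose at least 2-fold. Besides Lgals7, the galectin gene Lgals2 was at 34.9, 38.6 and 39.2 RPKM in parental cells and at 92.7, 85.2 and 93.7 RPKM in clone 19 (1.26). Cgn (cingulin, of tight junctions) was at 5.95, 5.87 and 5.59 RPKM in parental cells and at 13.6, 13.2 and 14.3 RPKM in clone 19 (1.17, and 0.84 with neighbouring genes subtracted). Krt17, a keratin of stressed epidermis, was at 0.239, 0.0703 and 0.240 RPKM in parental cells and at 1.26, 1.45 and 1.55 RPKM in clone 19 (1.5), and the basal keratin Krt14 rose from 43.8 to 76.4 RPKM (0.80). Desmosome genes Dsp and Dsg2 rose by 1.08 and 0.51, Jup (plakoglobin) by 0.74, Lsr by 1.05 and Perp by 0.73. Those that fell were Cdsn, Krt7, and the galectin genes Lgals1 (-0.35), Lgals3 (-0.59) and Lgals8 (-0.49). Cdh1 rose from 0.549 ± 0.0870 to 1.25 ± 0.123 RPKM (0.74), a level that stayed far under that of N-cadherin, Cdh2, which rose from 50.9 to 64.9 RPKM (0.35).

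Transcription factors and genes of the mesenchymal state were mixed. Of 28 measured, 10 rose and 15 fell, with 3 not called (median -0.22). The factors that repress E-cadherin were mostly lower. Snai1 was at 6.56, 6.64 and 6.47 RPKM in parental cells and at 1.14, 1.68 and 1.45 RPKM in clone 19 (-1.89), and Snai2 was at 16, 16.2 and 16.3 RPKM in parental cells and at 6.17, 6.05 and 6.56 RPKM in clone 19 (-1.30). Zeb2 fell by 0.51, Twist2 by 0.72 and Twist1 by 0.26, while Zeb1 rose by 0.18. Of the structural genes, Fbln1 (fibulin 1) fell from 3.97 ± 0.0405 to 0.600 ± 0.0898 RPKM (-2.03) and Loxl1, a collagen cross-linking enzyme, from 25.7 ± 0.481 to 7.61 ± 0.193 RPKM (-1.69), and Vim (vimentin) fell from 1199 to 946 RPKM (-0.34). Others of the same list rose, among them Dcn (decorin, from 47.1 ± 1.39 to 105 ± 4.63 RPKM, 1.15), Tnc (0.91), S100a4 (0.88), Cdh11 (0.74), Fn1 (0.50) and Acta2 (0.47).

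Fibrillar collagen genes split by chain. Of 18 collagens measured, 7 rose and 10 fell, with 1 not called (median -0.10). Col1a1 fell by 1.30, and its partner chain Col1a2 fell from 63.7 to 53.3 RPKM (-0.26). Col5a1 fell from 59.9 ± 2.03 to 15.5 ± 0.390 RPKM (-1.92), while Col5a2, of the same collagen, rose from 127 to 149.5 RPKM (0.24). Col6a3 fell from 8.35 to 2.50 RPKM (-1.56), against -0.12 and -0.07 for Col6a1 and Col6a2. The basement membrane chains Col4a1 and Col4a2 rose by 0.06 and 0.08, and the least abundant in parental cells of the 18 collagen genes that passed the filter, Col8a2, was at 0.454, 0.433 and 0.426 RPKM in parental cells and at 2.73, 2.52 and 2.84 RPKM in clone 19 (1.77). Genes next to Col5a1 and Col18a1 were lower too. With them subtracted, the changes were -1.62 and -0.73, from -1.92 and -1.08.

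In basement membrane, integrin and matricellular genes, of 34 genes measured, 19 rose and 13 fell, with 2 not called (median 0.20). The nidogens, which bridge laminin and collagen IV, moved in opposite directions. Nid1 was at 56.0, 54.1 and 52.4 RPKM in parental cells and at 10.7, 11.7 and 11.3 RPKM in clone 19 (-2.22), and Nid2 was at 2.31, 2.12 and 2.18 RPKM in parental cells and at 6.60, 6.67 and 7.62 RPKM in clone 19 (1.46). Integrin chains did so too, since Itgb8, which activates latent TGF-beta, rose from 3.73 ± 0.168 to 12.9 ± 0.265 RPKM (1.67), Itgb3 rose by 1.26 and Itga3 by 0.98, while Itga5, the fibronectin receptor chain, fell from 56.0 to 25.1 RPKM (-1.14). Of the heparan sulfate proteoglycans, Sdc3, Gpc1 (-1.27), Gpc4 (-1.41) and Gpc6 (-1.08) fell, and Sdc4 rose from 119.7 to 195 RPKM (0.70). Others had smaller values, with 0.26 for Hspg2, 0.33 for Agrn and -0.23 for Sdc1. Among 32 extracellular proteases and inhibitors, 13 rose and 17 fell, with 2 not called (median -0.11). The stromelysin gene Mmp3 was at 4.56, 4.66 and 4.72 RPKM in parental cells and at 0.548, 0.682 and 0.425 RPKM in clone 19 (-2.30) and Adamts2, which trims procollagen, fell from 6.63 to 1.58 RPKM (-1.78). Mmp13 and Adamts1, which cleave collagen and proteoglycans, rose by 1.34 and 1.17.

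TGF-beta genes were mixed. The latent TGF-beta carriers Ltbp1 and Ltbp2 (-1.56), Ltbp3 (-0.67) and the anchor Lrrc32 fell, while Ltbp4 rose (0.49). The ligands Tgfb1, Tgfb2 and Tgfb3 rose by 0.11, 0.41 and 0.52. Of the BMP branch, Bmp2 was at 1.30, 1.25 and 1.19 RPKM in parental cells and at 5.13, 5.94 and 5.51 RPKM in clone 19 (1.78), and Bmp4 and Bmp6 rose by 0.59 and 0.68, whereas the BMP antagonist Grem1 was at 1.88, 1.36 and 1.94 RPKM in parental cells and at 0.0208, 0.0365 and 0.0492 RPKM in clone 19 (-2.04) and Fst, the activin antagonist follistatin, fell by 1.40. Of the BMP-responsive inhibitors, Id1 rose (0.51), Id2 fell (-0.25) and Id3 was not called (-0.08). In all, of 36 genes measured, 13 rose and 16 fell, with 7 not called (median 0.00).

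All 10 measured MHC class II genes rose, beside 36.7% of all tested genes called higher, with a median of 0.45. MHC class II molecules display peptides from the endosome to helper T cells. H2-Aa was at 102, 102 and 102 RPKM in parental cells and at 236, 204 and 225 RPKM in clone 19 (1.11, SE 0.04), H2-Eb1 was at 51.6, 53.4 and 52.7 RPKM in parental cells and at 111, 98.4 and 108 RPKM in clone 19 (1.00), and H2-Ab1 was at 71.2, 74.1 and 70.5 RPKM in parental cells and at 139, 126 and 130.3 RPKM in clone 19 (0.87). None of the 3 chains overlapped between the groups, which was also the case for 73.7% of all tested genes. The invariant chain Cd74, the most abundant member, rose from 408 ± 3.23 to 689 ± 11 RPKM (0.76, and 0.49 with quantile normalization), and the peptide exchange chains H2-DMa and H2-DMb1 rose by 0.47 and 0.24. Of the regulators, Ciita, the class II transactivator, rose from 9.97 ± 0.463 to 12 ± 0.205 RPKM (0.26), and the subunits of the RFX complex that binds class II promoters, Rfx5, Rfxap and Rfxank, rose by 0.43, 0.42 and 0.11. H2-Oa and H2-Ob, the chains that inhibit peptide exchange, were at or under 0.195 RPKM in all 6 libraries. Against clone 1, 8 of the 10 were higher in clone 19, among them H2-Ab1 (0.80), H2-Eb1 (0.76) and H2-Aa (0.68). Of all tested genes, 43.1% were called between the clones, higher or lower.

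Class II promoters are known for a conserved CCAAT element, bound by NF-Y next to the sites of RFX. Stretches of the RefSeq windows of H2-Aa and H2-Eb1, the class II genes with the largest rise, are shown because both match its sequence before the gene's start. They are from GRCm38.p6, run 5′ to 3′ on the gene's strand, and show CCAAT or its reverse complement ATTGG in capitals.
H2-Aa (chr17:34287835-34287903, minus strand): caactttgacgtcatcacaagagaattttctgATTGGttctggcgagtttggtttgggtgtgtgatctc
H2-Eb1 (chr17:34305800-34305866, plus strand): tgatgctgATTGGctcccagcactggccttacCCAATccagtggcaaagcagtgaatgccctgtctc
The last match in H2-Aa and in H2-Eb1 begins 48 and 35 bases before the start. H2-Eb1 has 2 matches, an ATTGG and, nearer the start, the CCAAT whose position is given. Which of them is the conserved element was not tested. CCAAT, on either strand, was present in 39.5% of the 300-base windows of all tested genes that had one, so its presence alone does not set a promoter apart. Only 6 of the 10 class II genes had a window, under the 80% set for reading a share, so the share over the list is void.

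MHC class I and peptide processing genes rose by small amounts. Of 21 measured, 19 rose and 1 fell, with 1 not called (median 0.16), and 15 were also higher than in clone 1. The class I heavy chain H2-K1 rose from 779.7 ± 13.1 to 991 ± 27.5 RPKM (0.35), H2-Q7 from 66.6 ± 2.10 to 97.9 ± 2.27 RPKM (0.55), and B2m, the shared light chain and the most abundant of the list, from 1990 to 2243 RPKM (0.17). Reads of near-identical class I genes could have been split between copies, so single heavy chain levels are uncertain. The proteasome activators Psme1 and Psme2 rose by 0.37 and 0.48, the peptide transporters Tap1 and Tap2 by 0.13 and 0.21, and Nlrc5, the class I transactivator, by 0.12.

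Interferon signalling and response genes were called in both directions. Of 48 measured, 21 rose and 19 fell, with 8 not called (median 0.01). Ifi27l2a was at 22.4, 23.9 and 22.1 RPKM in parental cells and at 68.0, 66.2 and 62.9 RPKM in clone 19 (1.51) and Rsad2 (viperin, an antiviral enzyme) rose from 5.06 ± 0.521 to 10.5 ± 0.855 RPKM (0.99). The factor Irf1 rose by 0.27 and the GTPase Gbp2 by 0.54. In the other direction, Irf8 fell from 19.4 ± 0.878 to 12.1 ± 0.344 RPKM (-0.66, and -0.998 with neighbouring genes subtracted), the interferon receptor chains Ifngr1 and Ifnar2 by 0.34 each, and the kinase Jak1 by 0.43. The GTPase genes Tgtp1 and Tgtp2, which are near-identical copies and uncertain one by one, fell by 1.14 and 0.71.

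Of 22 chemokines, cytokines and receptors measured, 10 rose and 9 fell, with 3 not called (median 0.02). Il33, an alarmin of barrier cells, was at 3.54, 3.21 and 3.32 RPKM in parental cells and at 14.5, 14.2 and 14.2 RPKM in clone 19 (1.94), whereas its receptor Il1rl1 was at 1.26, 1.06 and 1.17 RPKM in parental cells and at 0.108, 0.0774 and 0.145 RPKM in clone 19 (-1.45). Il1rn, the antagonist of the interleukin-1 receptor, was at 2.58, 3.08 and 2.63 RPKM in parental cells and at 10.3, 11.5 and 11 RPKM in clone 19 (1.82), and the receptor Il1r1 fell from 4.13 to 2.73 RPKM (-0.52). Ccl5 rose by 1.28, Lif by 0.87 and Cxcl14 by 0.66. Ccl7 fell by 1.35, and the interleukin-6 family receptors Osmr and Il6ra fell by 1.16 and 0.92, while their shared partner Il6st rose (0.21).

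Inflammasome genes included Casp1, given above. Of 9 measured, 6 rose and 2 fell, with 1 not called (median 0.39). Among members that did not pass the filter, Il1b (interleukin-1 beta) was at 0 in all 6 libraries. Pycard was at or under 0.128 RPKM and Nlrp3 at or under 0.0745 RPKM in them. The DNA sensor Aim2 was at 1.44, 1.39 and 1.64 RPKM in parental cells and at 3.75, 4.34 and 4.01 RPKM in clone 19 (1.19), the sensor Naip2 rose by 0.55, and Il18, a substrate of caspase-1, rose from 10.9 ± 0.507 to 17.3 ± 0.372 RPKM (0.65). Casp12 fell from 30.4 ± 0.749 to 14.8 ± 0.452 RPKM (-1.01), and Gsdmd, the pore-forming target of caspase-1, fell from 42.2 to 31.2 RPKM (-0.43). Complement and acute-phase genes were mixed. Of 14 measured, 5 rose and 7 fell, with 2 not called (median -0.06), and 9 of the 14 were higher than in clone 1, with none lower. C3, the central complement component, was at 6.03, 5.98 and 6.0 RPKM in parental cells and at 15.4, 14.1 and 16.4 RPKM in clone 19 (1.28), and Clu (clusterin) was at 2.13, 2.19 and 2.07 RPKM in parental cells and at 8.48, 7.34 and 7.62 RPKM in clone 19 (1.66). Serping1, the C1 inhibitor, fell from 54.8 ± 0.508 to 24.3 ± 0.640 RPKM (-1.16), and C2 fell from 10.4 ± 0.568 to 4.98 ± 0.287 RPKM (-1.0).

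Cholesterol synthesis genes rose along most of the pathway. Of 27 measured genes of synthesis, uptake and sensing, 21 rose and 2 fell, with 4 not called, with a median of 0.64. Cells make cholesterol from acetyl-CoA under the control of the factor SREBP2, which the sensor SCAP escorts to activation and INSIG1 holds back. Srebf2, the gene of SREBP2, was at 51.7, 51.1 and 50.2 RPKM in parental cells and at 101, 99.7 and 102 RPKM in clone 19 (0.98, SE 0.02). In the mevalonate steps, Pmvk rose by 0.75, Mvd by 0.77, and Fdps from 4.53 ± 0.334 to 9.72 ± 0.731 RPKM (1.02). In the sterol steps, Cyp51 was at 25.1, 25.1 and 23.1 RPKM in parental cells and at 51.8, 49.6 and 54.9 RPKM in clone 19 (1.07) and Msmo1 was at 36.6, 37.5 and 37.4 RPKM in parental cells and at 79.5, 74.3 and 80.4 RPKM in clone 19 (1.06), and Sqle rose by 0.95. The list's other genes did not all go this way. Insig1 rose by 0.86, but Scap fell (-0.31), Npc1 fell (-0.12), and Dhcr7, which completes synthesis, was not called (-0.07). Against clone 1, 13 of the 27 were higher in clone 19 and 4 lower, beside 43.1% of all tested genes called in either direction.

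Sterol promoters are known to pair SREBP sites with a CCAAT element bound by NF-Y. Stretches of the windows of Srebf2 and of the pair of enzymes with the largest rise, Cyp51 and Msmo1, are shown for that element, with the same build and marking as above.
Srebf2 (chr15:82147102-82147170, plus strand): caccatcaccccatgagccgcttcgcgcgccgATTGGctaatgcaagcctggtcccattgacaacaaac
Cyp51 (chr5:4104698-4104758, minus strand): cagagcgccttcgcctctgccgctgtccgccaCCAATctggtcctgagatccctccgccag
Msmo1 (chr8:64733597-64733665, minus strand): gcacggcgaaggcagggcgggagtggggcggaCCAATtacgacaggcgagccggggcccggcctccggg
The elements marked begin 135, 29 and 55 bases before the start of Srebf2, Cyp51 and Msmo1. Of the 27 measured genes of the list, 19 had a window, again under 80%, so no share is read for the list.

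Fatty acid genes did not follow the sterol genes as a list. Of 20 measured, 9 rose and 6 fell, with 5 not called (median 0.07). The desaturase genes Fads1 and Fads2 rose from 86.8 ± 1.07 to 136 ± 1.52 RPKM and from 95.8 ± 2.49 to 199.6 ± 4.89 RPKM (0.65 and 1.06), and Fasn, the fatty acid synthase, by 0.25, whereas the stearoyl-CoA desaturase gene Scd1 was not called (0.00). Genes that fell included those of a triglyceride enzyme and an acyl-CoA synthetase, with Dgat2 at 3.17, 3.35 and 3.28 RPKM in parental cells and at 1.53, 1.38 and 1.74 RPKM in clone 19 (-0.88) and Acsl1 going from 12.4 to 6.84 RPKM (-0.81).

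In glycolysis, of 24 genes measured, 9 rose and 9 fell, with 6 not called (median 0.05). Some enzymes of the entry steps were among those that fell. Others did not fall, with log2 fold changes of 0.04 for Pfkm, 0.06 for Pfkp and 0.22 for Gpi1. Pfkl, a phosphofructokinase, was at 20.2, 22.4 and 21.4 RPKM in parental cells and at 8.36, 8.83 and 8.54 RPKM in clone 19 (-1.26, and -0.90 with neighbouring genes subtracted), and the hexokinase genes Hk2 and Hk1 fell from 10.1 to 4.94 RPKM and from 16.4 to 8.85 RPKM (-0.96 and -0.86). Lactate transporters were among those that rose. Slc16a1 (MCT1) was at 65.5, 65.6 and 64.3 RPKM in parental cells and at 128, 126 and 130.3 RPKM in clone 19 (0.97, and 0.66 with neighbouring genes subtracted), Slc16a3 (MCT4) was at 45.3, 47.3 and 47.4 RPKM in parental cells and at 106, 108 and 106 RPKM in clone 19 (1.19), and their partner Emb rose as given above. Aldoc, an aldolase of brain, rose from 2.79 ± 0.0592 to 7.85 ± 0.780 RPKM (1.34), and Ldha, lactate dehydrogenase A, fell from 114 to 91.2 RPKM (-0.32). Gapdh was listed at 4.25 and 4.59 RPKM, a low level for a gene with many processed copies in the genome, and was not called.

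The branches of the stress response moved in opposite directions. Genes of the ATF4 integrated stress response, which supplies amino acids and restrains growth, mostly fell, and chaperones of the unfolded protein response mostly rose. Of 22 ATF4 genes, 2 rose and 16 fell, with 4 not called (median -0.23). Stc2 (stanniocalcin 2) was at 5.87, 6.02 and 5.88 RPKM in parental cells and at 1.67, 1.74 and 1.48 RPKM in clone 19 (-1.59), Vldlr was at 4.84, 4.72 and 4.72 RPKM in parental cells and at 1.65, 1.60 and 1.51 RPKM in clone 19 (-1.33), and Shmt2, of mitochondrial serine metabolism, fell from 139 ± 1.53 to 78.8 ± 1.10 RPKM (-0.82, and -0.49 with neighbouring genes subtracted). Atf4 itself fell from 248 to 218 RPKM (-0.19), Asns by 0.26 and Ddit3 (CHOP) by 0.35, while the amino acid transporter genes Slc7a5 and Slc3a2 rose by 0.22 and 0.09. Of 20 chaperone and sensor genes, 16 rose and 2 fell, with 2 not called (median 0.16). Xbp1, the spliced factor of this response, rose from 35.0 ± 0.608 to 60.2 ± 1.87 RPKM (0.77, and 0.44 with neighbouring genes subtracted), its activator Ern1 (IRE1) from 10.1 to 14.9 RPKM (0.55), and the chaperone Hspa5 (BiP) from 499.8 to 553 RPKM (0.14). Hsp90b1 fell (-0.25). Against clone 1, 12 of the 22 ATF4 genes were higher in clone 19 and 2 lower, and 4 of the 20 chaperone genes were higher and 9 lower.

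Detoxification genes were mostly lower. Of 12 measured genes of xenobiotic, retinoid and aldehyde metabolism, 2 rose and 9 fell, with 1 not called (median -0.37). The glutathione transferase gene Gsta4 was at 35.4, 37.4 and 35.2 RPKM in parental cells and at 6.68, 6.75 and 7.53 RPKM in clone 19 (-2.29), and Gstp1 fell from 33.0 ± 0.987 to 15.8 ± 1.15 RPKM (-1.05). Aldh1a1, which makes retinoic acid, went the other way and was at 108, 106 and 103 RPKM in parental cells and at 234, 233 and 239 RPKM in clone 19 (1.15). Among 19 genes of glutathione and NRF2 defence, 3 rose and 10 fell, with 6 not called (median -0.12). Txnrd1, thioredoxin reductase, fell from 154 ± 1.97 to 78.3 ± 1.15 RPKM (-0.97) and Slc7a11, the cystine transporter, from 3.98 to 1.95 RPKM (-0.87), and Nfe2l2, the gene of NRF2, by 0.27. The metallothionein genes, which bind zinc and copper, rose. Mt2 was at 11.1, 13.3 and 12.3 RPKM in parental cells and at 32.1, 29.8 and 32.3 RPKM in clone 19 (1.32) and Mt1 rose from 12 ± 1.36 to 20.8 ± 0.838 RPKM (0.78), and both were higher than in clone 1 (1.03 and 0.73).

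Immediate early genes were more often lower than higher. Of 22 measured, 3 rose and 12 fell, with 7 not called (median -0.17). Fosl1, a subunit of AP-1, was at 35.0, 35.0 and 34.4 RPKM in parental cells and at 14.5, 14.8 and 14.2 RPKM in clone 19 (-1.23). Junb and Ier2, which lie in a stretch of lower genes described further on, fell by 0.91 and 0.70, and with neighbouring genes subtracted by 0.48 and 0.30 on the same scale. Btg2, which slows proliferation, rose from 2.78 ± 0.277 to 5.91 ± 0.198 RPKM (0.97), and Egr1 rose by 0.34. Among 17 genes of ERK output and feedback, 7 rose and 8 fell, with 2 not called (median -0.06). Hmga2, a chromatin protein of fetal and tumour cells, was at 30.7, 30.4 and 29.8 RPKM in parental cells and at 9.89, 10.9 and 9.97 RPKM in clone 19 (-1.52), and the ERK phosphatase genes split, with Dusp4 falling by 0.84 and Dusp5 rising from 9.03 ± 0.354 to 19.4 ± 0.729 RPKM (1.06).

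All 21 measured Wnt ligands, receptors and modulators were called, 13 higher and 8 lower (median 0.26). Sfrp1 and Ror2 passed the filter through parental cells alone and Sfrp2 through clone 19 alone, so their calls are no support for a difference. Of the ligands, Wnt9a rose from 4.87 to 10.4 RPKM (1.02), Wnt2b by 1.18 and Wnt5a by 0.49, and Wnt4 fell by 0.81. Of the receptors, Fzd4 was at 4.37, 3.98 and 4.36 RPKM in parental cells and at 13.5, 13.2 and 13.2 RPKM in clone 19 (1.54), and Ror2, a receptor of WNT5A, was at 3.56, 3.50 and 3.44 RPKM in parental cells and at 0.137, 0.234 and 0.193 RPKM in clone 19 (-2.54), while its relative Ror1 rose (0.57). Of the secreted modulators, Sfrp1 fell as given above, Sfrp2 was at 0.655, 0.884 and 0.499 RPKM in parental cells and at 2.71, 2.11 and 2.58 RPKM in clone 19 (1.34), and Rspo1 rose. Of 15 Wnt target genes, 4 rose and 10 fell, with 1 not called (median -0.27). Ccnd1 (cyclin D1) was at 129.6, 132 and 129 RPKM in parental cells and at 67.5, 68.8 and 68.7 RPKM in clone 19 (-0.93), Lgr4, an R-spondin receptor, fell from 14.9 ± 0.315 to 7.17 ± 0.289 RPKM (-1.0), and Sox9 was at 1.42, 1.49 and 1.42 RPKM in parental cells and at 0.329, 0.238 and 0.292 RPKM in clone 19 (-1.31). Axin2, the target most often used to read out the pathway, rose from 3.23 ± 0.0370 to 4.42 ± 0.125 RPKM (0.40), and Lgr5 was at or under 0.0128 RPKM in all 6 libraries.

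Growth factor genes showed large changes in both directions. Of 30 genes of the FGF, PDGF, VEGF and related families, 11 rose and 16 fell, with 3 not called (median -0.14). Fgf18 was at 13.3, 13.3 and 14.1 RPKM in parental cells and at 42.3, 42.5 and 45.0 RPKM in clone 19 (1.64), and Fgf10 rose from 0.497 to 2.46 RPKM (1.57), while the receptor Fgfr1 was at 8.31, 8.43 and 8.11 RPKM in parental cells and at 1.11, 0.951 and 1.16 RPKM in clone 19 (-2.48) and Fgfr2 fell by 0.86. In the PDGF family the ligand Pdgfa rose (1.04) and the receptors Pdgfra and Pdgfrb fell (-0.77 and -1.01). In the IGF axis, of 15 genes measured, 5 rose and 7 fell, with 3 not called (median -0.11). Besides Igf2, Igfbp3 fell from 65.3 ± 1.59 to 35.5 ± 0.669 RPKM (-0.87) and Igfbp4 was at 6.12, 5.90 and 6.39 RPKM in parental cells and at 14.5, 15.5 and 15.8 RPKM in clone 19 (1.25). The receptor Igf1r was not called (0.03).

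In the Notch list, of 12 genes measured, 4 rose and 4 fell, with 4 not called (median -0.04). Notch1 was at 4.83, 5.24 and 4.39 RPKM in parental cells and at 1.73, 1.90 and 1.88 RPKM in clone 19 (-1.19), the ligand Jag1 was at 2.92, 3.23 and 2.92 RPKM in parental cells and at 7.09, 6.71 and 7.14 RPKM in clone 19 (1.09), and Jag2 rose by 0.74. Notch2 rose by 0.39, a call that ended with neighbouring genes subtracted (0.08, adjusted p = 0.197, limma). Of 25 YAP and TAZ genes, 13 rose and 9 fell, with 3 not called (median 0.10). Nt5e (CD73, which makes adenosine) was at 2.95, 2.64 and 3.11 RPKM in parental cells and at 11.6, 12.9 and 11.6 RPKM in clone 19 (1.88), and Wwtr1, the gene of TAZ, rose from 36.6 to 65.6 RPKM (0.84). Reference targets differed, since Ccn1 and Ccn2 were not called (-0.02 and 0.10) and Ankrd1 had a log2 fold change of 0.75. Nt5e stood against most of the extracellular purine genes, of which 10 were measured, 2 rose and 8 fell (median -0.52). The adenosine receptor gene Adora2b was at 1.29, 1.13 and 1.10 RPKM in parental cells and at 0.0554, 0.0650 and 0.0656 RPKM in clone 19 (-1.57), and Panx1, a channel that releases ATP, was at 4.21, 4.43 and 4.59 RPKM in parental cells and at 1.31, 1.07 and 1.28 RPKM in clone 19 (-1.51).

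Polycomb subunits changed little at the core. Of 29 measured, 8 rose and 12 fell, with 9 not called (median -0.05). The PRC2 core genes Ezh2, Suz12 and Eed had log2 fold changes of 0.12, 0.05 and 0.04, with only Ezh2 called among these 3. The accessory subunit gene Phf19 was at 2.04, 2.19 and 2.17 RPKM in parental cells and at 0.482, 0.528 and 0.388 RPKM in clone 19 (-1.45), and in PRC1 the ring partner Pcgf5 rose from 32.9 ± 1.04 to 58.9 ± 1.53 RPKM (0.83), while Bmi1 fell (-0.37, and -0.18 with neighbouring genes subtracted). All 8 measured histone genes rose (median 0.42). Besides H1f2, the core histone gene H2bc4 was at 5.22, 5.15 and 5.15 RPKM in parental cells and at 21.8, 20.3 and 18.5 RPKM in clone 19 (1.86; a multigene family, so uncertain), and H1f0, a linker histone of slowly dividing cells, rose from 127 ± 1.36 to 226 ± 4.79 RPKM (0.83).

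Hox genes, which set position along the body axis, are given by cluster. Of 29 measured, 7 rose and 13 fell, with 9 not called (median -0.14). In the Hoxa cluster 5 of 7 rose and 0 fell (median 0.23), and in the Hoxb cluster 1 of 9 rose and 6 fell (median -0.24). The Hoxc cluster had 0 of 6 higher and 3 lower (-0.27), and the Hoxd cluster 1 of 7 higher and 4 lower (-0.24). Hoxb9 had the largest fall and was at 8.15, 7.84 and 8.17 RPKM in parental cells and at 4.0, 4.08 and 3.76 RPKM in clone 19 (-0.94), and Hoxd11 had the largest rise, from 7.80 ± 0.522 to 11.6 ± 0.470 RPKM (0.54). Members of a cluster are neighbours on the chromosome and are not independent of each other. Of 39 other developmental factors, 11 rose and 17 fell, with 11 not called (median -0.07). Irx1 was at 7.89, 7.84 and 8.74 RPKM in parental cells and at 1.42, 1.19 and 1.15 RPKM in clone 19 (-2.30), and Gata6, Nkx2-3 and Tbx18 rose by 0.84, 0.69 and 0.73. Of 24 imprinted genes, 12 rose and 6 fell, with 6 not called (median 0.15). Igf2 and Peg10 (-1.54) fell, and Ndn (necdin) was at 8.49, 8.04 and 8.44 RPKM in parental cells and at 4.21, 3.46 and 5.10 RPKM in clone 19 (-0.90). Snurf and Snrpn, which share a transcript and so overlap, rose by 0.92 and 0.88.

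Cell cycle genes were called in both directions, with no member changed 2-fold. Of 43 measured, 16 rose and 14 fell, with 13 not called (median 0.04). G1 cyclin genes were among those that fell, with Ccnd2 going from 41.9 to 26.1 RPKM (-0.67) and Ccne1 from 15.2 to 8.85 RPKM (-0.75), in addition to Ccnd1. The mitotic genes Ccnb1, Ccnb2, Aurka and Cdc20 rose by 0.25, 0.19, 0.22 and 0.18, and Mki67, a general marker of cycling cells, was not called (0.13). Rrm2, which makes deoxynucleotides, rose from 119 ± 1.60 to 184 ± 3.25 RPKM (0.63). Of 21 p53 genes, 11 rose and 5 fell, with 5 not called (median 0.09), with Pmaip1 (NOXA) at 3.11, 3.23 and 3.35 RPKM in parental cells and at 6.80, 6.57 and 6.38 RPKM in clone 19 (0.93), Ccng1 rising by 0.73 and Mdm2 falling by 0.23.

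Neural adhesion, guidance and sorting genes held the largest single rise and were mixed as a list. Of 31 measured, 16 rose and 11 fell, with 4 not called (median 0.15). Sorcs1 rose while its relative Sorcs2 was at 2.57, 2.68 and 2.44 RPKM in parental cells and at 0.321, 0.393 and 0.345 RPKM in clone 19 (-1.84). Slit3, a guidance ligand, rose from 15.7 to 37.0 RPKM (1.21), the ephrin receptor gene Epha4 from 3.64 to 7.77 RPKM (1.00), and the semaphorin receptor genes Plxnd1 and Plxna1 fell by 1.29 and 0.94. The summed level of the 14 neural and glial markers was 84.1 to 86.1 RPKM in parental libraries and 67.9 to 72.2 RPKM in clone 19. Tubb3, a neuronal tubulin, fell from 56.4 ± 0.470 to 33.2 ± 0.999 RPKM (-0.75), and Uchl1 rose by 0.35. Of 19 channels and pumps, 9 rose and 7 fell, with 3 not called (median 0.17). Beside Aqp1, the T-type calcium channel gene Cacna1g was at 0.971, 0.982 and 1.05 RPKM in parental cells and at 3.45, 3.05 and 3.42 RPKM in clone 19 (1.34). Trpv4, a calcium channel opened by stretch and heat, fell from 4.76 ± 0.127 to 2.04 ± 0.0280 RPKM (-1.05), and Atp1b1, of the sodium-potassium pump, rose from 66.9 ± 1.34 to 138 ± 2.58 RPKM (1.04). Of the endothelial list, Esam rose from 20.2 ± 0.552 to 40.9 ± 1.32 RPKM (1.00), with the defining endothelial gene Pecam1 at or under 0.0997 RPKM in all 6 libraries. The summed level of the 14 endothelial markers was 25.1 to 25.4 RPKM in parental libraries and 44.7 to 47.1 RPKM in clone 19, mostly Esam.

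Genes were also read in chromosome order, in windows of 51 tested genes in a row. Of these windows, which overlap, 19.95% had a median log2 fold change beyond 0.2 in either direction. The lowest window ran from Llph to Rbms2, with a median of -0.45 and 43 of 51 genes lower, 2 higher and 6 not called. It held Cdk4, which fell from 254 to 219.7 RPKM (-0.21), and Shmt2. The next ran from Elmod2 to Man2b1 (median -0.43, 42 lower and 2 higher) and the third from Pomt1 to Lhx6 (-0.41, 40 lower and 4 higher). The highest ran from Mfsd8 to Tiparp (0.45, 42 higher and 6 lower), where Tm4sf1, a tetraspanin-like surface protein, rose from 232 ± 3.60 to 400.2 ± 8.26 RPKM (0.79). Further high windows ran from Limk2 to H2az2 (0.37, 46 higher and 2 lower) and from Chd1l to Dennd2d (0.37, 40 higher and 5 lower), the last with Slc16a1 in it. Against clone 1, the same 6 windows had medians between -0.16 and 0.05 in clone 19. What these stretches share besides position was not tested. With the median shift of 50 neighbours subtracted, 7899 genes were called, 6611 of them also called the same way without it, and 427 of the 510 genes changed at least 2-fold were still changed at least 2-fold.

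Clone 19 was also set against clone 1, the direct test of what differed between the knockouts. By limma, 5366 genes (43.1%) were called between the clones. At least 2-fold above both parental cells and clone 1 were 25 genes (0.201% of those tested), and 1 gene (0.00803%) was at least 2-fold below both. These counts depend on the pseudocount and the filter, as given with the processing alternatives. The comparisons with parental cells and with clone 1 share the clone 19 libraries. Some of the 25 genes, among them Lgi2, Itgal, Sfrp2, Pgc and Slfn5os, passed the filter through clone 19 alone. They had to lie above parental cells, so their calls are no support for that. Of the 219 genes at least 2-fold above parental cells, 107 were called higher than clone 1, 53 lower and 59 not called. Of the 291 at least 2-fold below, 98 were called lower than clone 1, 44 higher and 149 not called.

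The largest of these differences was Spint2, an inhibitor of membrane serine proteases found in epithelia. It was at 1.46, 1.38 and 1.57 RPKM across parental libraries and at 6.53, 4.66 and 5.05 RPKM across those of clone 19, and at 0.354, 0.545 and 0.610 RPKM in clone 1, so that clone 19 lay above and clone 1 below the parental cells (log2 fold change to clone 1 2.56, adjusted p = 1.8e-07, limma). Lgi2, a secreted synaptic protein, had the same order, and was at 0.716, 0.661 and 0.596 RPKM in parental cells and at 3.15, 2.85 and 3.47 RPKM in clone 19, against 0.246, 0.191 and 0.181 RPKM in clone 1 (2.37). Itgal was at 0.468 ± 0.0546 RPKM in clone 1 (1.82), close to its parental level, and Sfrp2 was at 0.362 ± 0.0465 RPKM (1.78). Pgc (progastricsin, a stomach protease) was at 0.261, 0.435 and 0.153 RPKM in parental cells and at 2.19, 1.82 and 1.98 RPKM in clone 19 and at 0.289 ± 0.00943 RPKM in clone 1 (1.66), and Actn3, an actinin of fast muscle, at 1.16, 1.25 and 1.30 RPKM in parental cells and at 5.0, 4.75 and 5.35 RPKM in clone 19 and 1.51 ± 0.133 RPKM (1.46). Saa3, the most abundant of the 25, was at 48.4 ± 1.84 RPKM in clone 1 (1.40). Slfn5os was at 0.512, 0.617 and 0.527 RPKM in parental cells and at 3.74, 3.08 and 3.86 RPKM in clone 19 and at 0.875 ± 0.152 RPKM in clone 1 (1.56). It is annotated antisense to a coding gene, and no source used here states that counting used strand, so its reads and those of its partner cannot be told apart. The gene below both was Snora75, a small nucleolar RNA, at 1.95, 2.14 and 2.08 RPKM in parental cells and at 0.587, 1.29 and 0 RPKM in clone 19 and at 1.85, 1.06 and 1.64 RPKM in clone 1. Its clone 19 and clone 1 libraries overlapped (-1.0, adjusted p = 0.0396, limma), and its change from parental cells (-1.37) was -0.87 without clone 19 replicate 3.

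**Figure D5:**
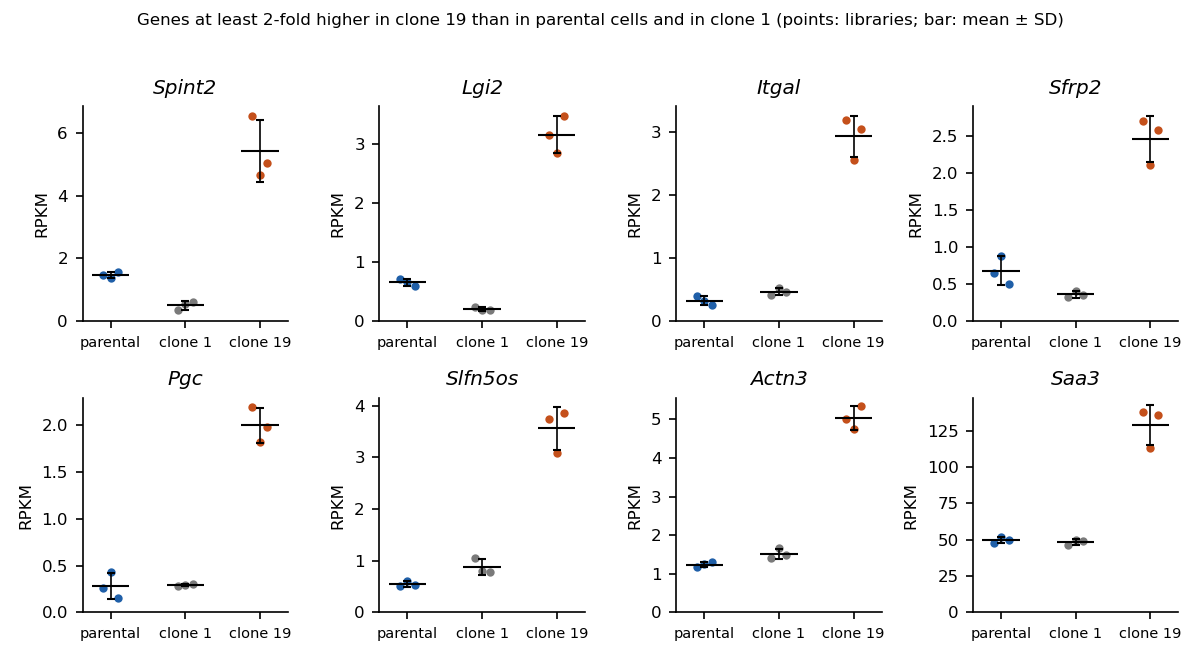
RPKM (y axis, linear and from 0) in parental cells, clone 1 and clone 19 for 8 genes at least 2-fold higher in clone 19 than in both other groups; points are libraries, the bar is the mean and the whiskers are 1 SD (n = 3). Every clone 19 library lies above every other library in each panel, and for Spint2 and Lgi2 clone 1 lies below the parental cells.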

How the data were processed

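RNA was taken with a column kit, and TruSeq libraries were sequenced from 3 parental, 3 clone 1 and 3 clone 19 samples, per the labels. The authors deposited RPKM values per gene, made with GSNAP and DESeq on build NCBIM37 per the submitters' processing notes. Annotation, counting rule and use of strand: not given in the sources used here. Of 28059 gene IDs, 24998 were named from RefSeq's gene table (GRCm38.p6, used for names and gene order only) and 16 from GENCODE, and 968 tested genes had no name. Depth was estimated from the steps between low RPKM values, where 79.8% of low genes were whole multiples within 0.02.

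Genes with at least 1 RPKM in at least 3 of the 6 libraries were tested with limma 3.58.1 (R 4.3.3; group means over all 9 libraries, mean-variance trend) on log2(RPKM + 0.5), with Benjamini-Hochberg adjustment over 12449 genes and a threshold of 0.05. Fold changes on this scale understate the change of low genes. An exact permutation test of 3 against 3 libraries cannot go below 0.1 and was not used. The fit was tested on simulated data. Tables were made with Python 3.11.15, pandas 2.3.3 and numpy 2.4.6.

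Named were all kinase module genes, the 15 genes most raised and lowered at least 2-fold without overlap, genes at or above 2 RPKM in 1 group and under 0.1 RPKM in the other, up to 6 genes a direction of at least 100 RPKM and 2-fold, up to 5 called members of each list with the largest change, up to 8 genes a direction that also differed 2-fold from clone 1, and the 3 lowest and 3 highest stretches of 51 neighbouring genes. IDs without a symbol and predicted genes were left out of the ranking. Other list members named in the text were chosen after their values were seen. The 43 gene lists and the comparison itself were chosen with earlier results of these data known. Promoter windows of 300 bases (250 before and 50 after the start) came from RefSeq (GRCm38.p6). Values of some list members are not reported here.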

Additional observations from a re-analysis of the deposited data

Results flagged for a closer look

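Among the named genes, 20 differed at least 2-fold between clone 19 and clone 1 by the test of that difference itself. Spint2, Lgi2, Itgal, Sfrp2, Pgc, Slfn5os, Actn3, Saa3 and Snora75 met a naming rule that required a 2-fold difference from clone 1. The count of 20 is therefore partly set by the choice of genes, and no share of all tested genes is given beside it. The values that follow are log2 differences of clone 19 minus clone 1 (limma, all called). Of the 20 genes, 16 were higher in clone 19 than in both other groups. They were Spint2 (2.56), Lgi2 (2.37), Itgal (1.82), Sfrp2 (1.78), Pgc (1.66), Slfn5os (1.56), Actn3 (1.46), Saa3 (1.40), Unc45b (1.37), Cacna1g (1.30), Fxyd3 (1.22), Clu (1.11), C3 (1.10), Lratd1 (1.03), Mt2 (1.03) and Prss12 (1.01). Snora75 (-1.0, adjusted p = 0.0396, limma) was lower on average than in both, with libraries that overlapped those of clone 1.

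Of the other three, Ndn, which encodes the growth suppressor necdin, differed most. It was at 8.49, 8.04 and 8.44 RPKM in parental cells and at 4.21, 3.46 and 5.10 RPKM in clone 19, and at 0, 0 and 0.0577 RPKM in clone 1, so its fall was far deeper in clone 1 (difference 3.18). C2 was at 1.30 ± 0.0517 RPKM in clone 1 (SD, n = 3; difference 1.61) and Fbln1 at 0.0124 ± 0.0107 RPKM (difference 1.10), also below clone 19, which itself was below parental cells.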

How the results depend on the processing

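With 17 processing alternatives, 3520 of 3526 values of the 209 named genes kept their direction and their side of the threshold. Med13 reversed with neighbouring genes subtracted (0.063), and lost its call without parental replicate 1 or clone 19 replicate 2. Med12 gained a call with neighbouring genes subtracted (-0.185). Notch2 lost its call in that fit, as did the immune marker Cd68 (0.203 from 0.371, adjusted p = 0.0729, limma). A pseudocount of 0.1 in place of 0.5 enlarged the change of genes near 0 in 1 group by over 1.5 times, as for Lrrc32 (-4.82), Ctsk (-4.44), Syk (-4.0), Grem1 (-3.74), Adora2b (-2.97), Ltbp2 (-2.79), Il1rl1 (-2.60), Krt17 (2.49), Snora75 (-2.24) and Sox9 (-2.0). The count of 26 genes at least 2-fold beyond both parental cells and clone 1 became 42 with a pseudocount of 0.1, 16 with a pseudocount of 1 and 17 with a filter at 3 RPKM, and was 25 to 33 with 1 library left out. Leaving out 1 library gave 8047 to 8189 called genes, 511 to 527 genes changed at least 2-fold, and -0.75 to -0.73 for Cdk8. Without any filter 9679 of 21161 genes were called. Median-ratio scaling called 4266 higher and 4379 lower. The replicate block called 8524 genes (4527 higher, 3997 lower) and left 510 changed at least 2-fold and 26 beyond clone 1. Replicate numbers did not pair the libraries: correlations of same-numbered deviations were -0.0279, 0.0441 and -0.00554, and not every library correlated best with its own number. The values are RPKM, so the reads behind each value are known only by estimate, and genes that did not pass the filter were tested only in the fit without it.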
